A study of Mus musculus with 16 samples.

Results

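The transcripts of 10 genes used as markers of adipose stromal progenitor cells were examined in mouse mammary adipose tissue: Pdgfra, Pdgfrb, Cd34, Ly6a, Dpp4, Pi16, Sfrp2, Sfrp4, Sfrp5 and Fap. They were taken by name from a table of 23179 genes, and all 10 were among the 21218 genes tested, which reached a normalized count of 10 or more in 4 or more libraries. Each of 4 groups held 4 mice, with 1 RNA-Seq library per mouse (16 libraries). All mice were wild-type C57BL/6N females (the C57BL/6NCrl substrain), bought as young adults, and all carried an E0771 mammary tumor in the 4th mammary fat pad, injected 22 weeks after randomization to diet, so no group was free of tumor. The tissue sequenced was, by its source label and protocol, the whole fat pad of the opposite side (the 9th), not sorted cells. Other labels of every sample name the tumor line E0771 and mammary cancer as cell type, which conflicts with that source, and 12 adipocyte genes summed to between 572182 and 2068995 normalized counts in each library. CON-LFD mice received the low-fat control diet D12450J throughout. DIO-HFD mice were made obese on the high-fat diet D12492 and stayed on it. DIO-LFD mice were made obese and then moved to the low-fat diet, and DIO-VSG mice were made obese and then underwent vertical sleeve gastrectomy, the surgical removal of most of the outer stomach, followed by the same low-fat diet. CON-LFD, DIO-HFD and DIO-LFD mice had a sham operation. DIO-VSG thus differed from DIO-HFD in both surgery and diet.

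Fat cells form throughout life from stromal progenitors that lie among the vessels and connective tissue of fat. These cells carry the receptor PDGFRα and the surface proteins CD34 and SCA-1 (the product of Ly6a), and a DPP4- and PI16-positive subset in the interstitium is known to give rise to more committed preadipocytes. Wnt signals hold back the formation of fat cells, and secreted frizzled-related proteins (SFRPs) bind Wnt ligands outside the cell. In a whole fat pad, fewer cells of a type and less RNA per cell cannot be told apart, and several of these genes are also used by other cells of the pad, such as pericytes (Pdgfrb), endothelial cells (Cd34 and Ly6a), lymphocytes (Dpp4) and adipocytes (Sfrp5).

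The libraries held 46907377 to 57610899 reads, and each of the 10 genes held at least 27 reads in every library (the lowest being Sfrp4 in DIO-LFD replicate 1), above the floor of 3 reads. The defining markers of fat were present: the summed normalized count of 12 adipocyte genes ran from 572182 to 2068995, and that of 12 fibroblast genes from 257560 to 1031520. The libraries divided sharply by B cell genes. The B cell score, the mean over 10 markers of the log2 value less the mean of that gene over all libraries, was −5.76 and −3.81 in CON-LFD replicates 2 and 4 and −2.44 and −4.45 in DIO-HFD replicates 2 and 3, and lay between −0.15 and 2.34 in the other 12 libraries. T cell and lymph node stroma scores were lowest in CON-LFD and DIO-HFD libraries too (lowest −3.63 and −4.67). The methods do not say whether the node that lies in this pad was taken out. Because these 4 libraries all belong to CON-LFD and DIO-HFD, many of the differences below are also given over the other 12 libraries. Values of single genes of the lists are given over 16 libraries.

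Per kilobase of exon, Ly6a and Sfrp5 were the most abundant of the 10 transcripts, at a mean of 6549 and 3694 normalized counts per kilobase over the 16 libraries. A middle group followed, with Pi16 at 963, Cd34 at 928, Pdgfrb at 878, Pdgfra at 644 and Sfrp2 at 585. Dpp4 (413), Fap (195) and Sfrp4 (154) were the lowest. This order pools groups that differed. Sfrp5 was at 9631 in DIO-HFD, above Ly6a there (6195), and at 1331 in CON-LFD, 2203 in DIO-LFD and 1609 in DIO-VSG. Group means of Pi16 ran from 382 in DIO-VSG to 1326 in CON-LFD. The mice differed from each other far more in some of these genes than in others. Sfrp4 spanned a 107-fold range over the 16 libraries (29.5 to 3154 normalized counts) and Pi16 an 89.4-fold range (264 to 23627), whereas Ly6a spanned 2.5-fold (4131 to 10266). The SD within groups on the log2 scale was 1.76 for Pi16, 1.6 for Sfrp4, 1.19 for Sfrp5 and 0.95 for Dpp4, against a median of 0.36 over all genes tested, and 96.8% of genes tested varied less within groups than Pi16. It was 0.35 for Ly6a and 0.38 for Pdgfrb, close to that median. A few mice set the extremes of many genes at once. CON-LFD replicate 4 was the highest library for Cd34, Dpp4, Pi16, Sfrp2, Sfrp4 and Fap, DIO-LFD replicate 1 the lowest for Pi16, Sfrp2, Sfrp4 and Fap, and DIO-VSG replicate 1 the lowest for Pdgfra, Pdgfrb and Cd34.

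**Figure D1:**
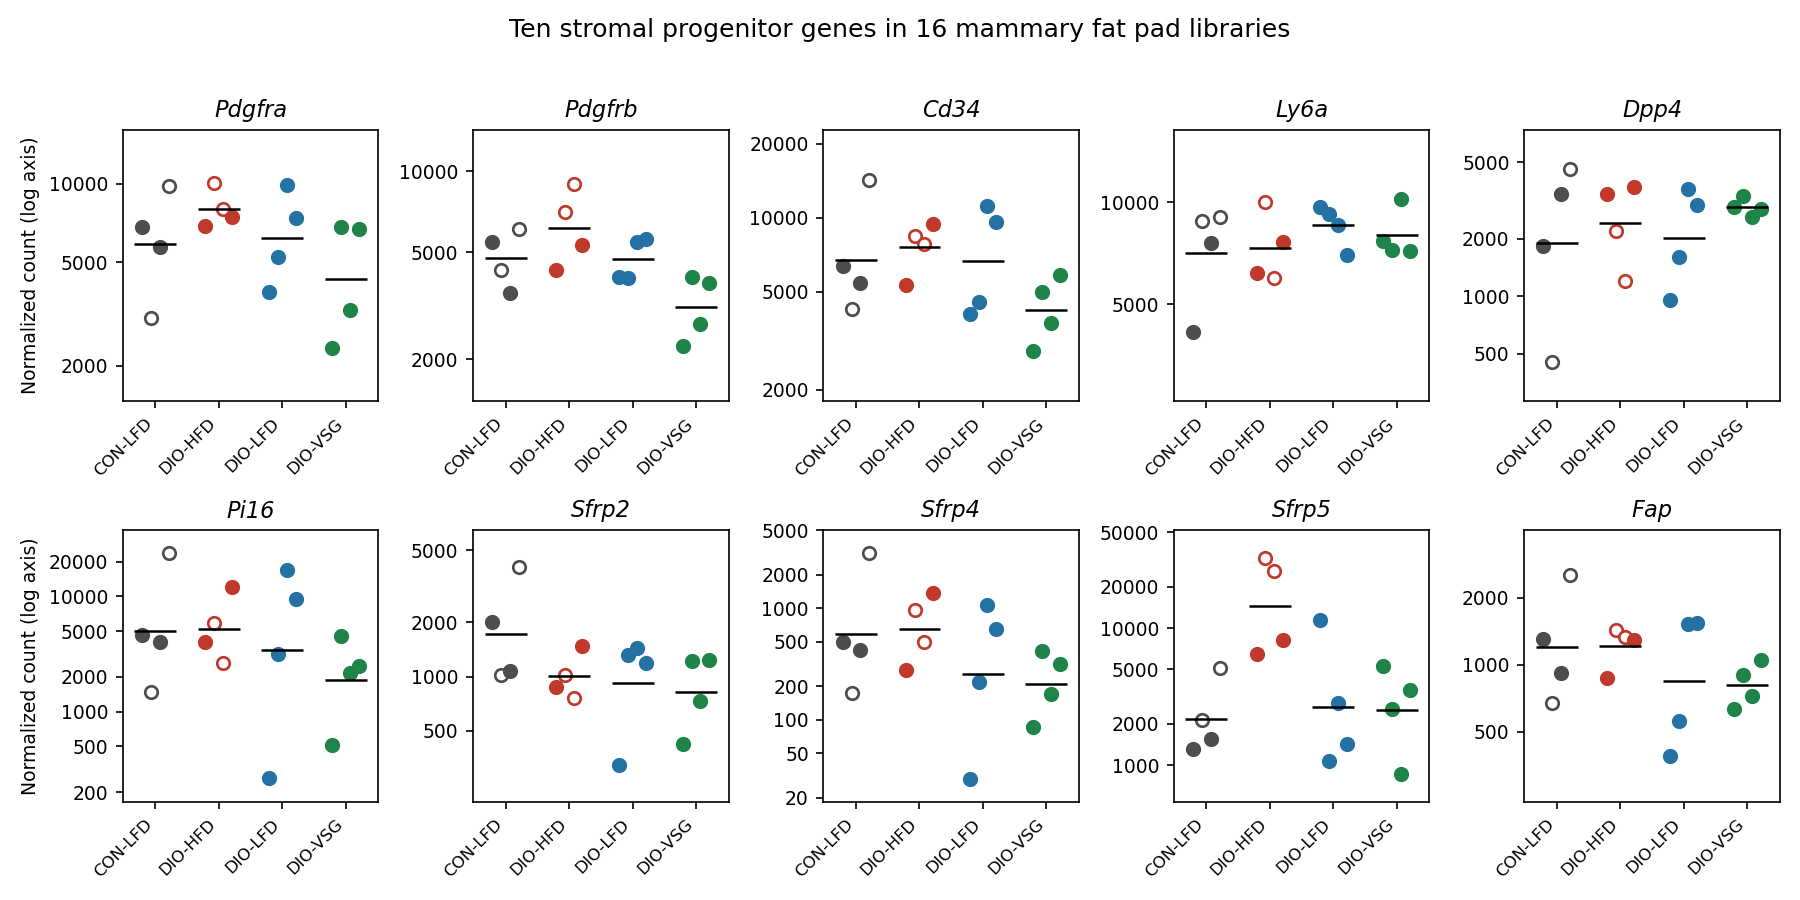
Normalized count (log axis) of each gene in the 16 libraries, 4 per group, with replicates 1 to 4 from left to right. Open circles mark the 4 libraries with a B cell score below −2, and black lines mark group means on the log2(normalized count + 1) scale; Sfrp5 was highest in DIO-HFD, the 4 DIO-VSG libraries lay below all DIO-HFD libraries for Pdgfra, Pdgfrb and Sfrp5, and Pi16 and Sfrp4 scattered widely within groups.

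Obesity with continued high-fat feeding was addressed by DIO-HFD against CON-LFD, and weight loss on a low-fat diet by DIO-VSG and DIO-LFD against DIO-HFD. DIO-HFD was the only group on the high-fat diet when the tissue was taken. Obesity and current diet therefore cannot be told apart in these comparisons. No comparison placed any of the 10 genes past an adjusted P value of 0.05 in limma. Among all genes tested that threshold was passed by 0.0377% in DIO-HFD against CON-LFD, by 0.00471% in DIO-LFD against CON-LFD and by 0.0% in each of the other 4 comparisons, so these data called very few genes of any kind. At an unadjusted limma P value below 0.05, DIO-VSG against DIO-HFD gave 4 of the 10 genes, Pdgfra, Pdgfrb, Cd34 and Sfrp5, all lower in DIO-VSG, beside 13.2% of all genes tested. DIO-HFD against CON-LFD gave 1 (Sfrp5; 12.9% of all genes), DIO-LFD against DIO-HFD gave 1 (Sfrp5; 8.53%), DIO-VSG against DIO-LFD gave 1 (Pdgfrb; 9.71%), DIO-VSG against CON-LFD gave 1 (Pdgfrb; 17.8%) and DIO-LFD against CON-LFD gave 0 (6.26%). These single genes are close to the share of all genes, and only DIO-VSG against DIO-HFD held more than 1. Without the 4 libraries of low B cell score, 1 of the 4 genes of that comparison (Pdgfrb) kept an unadjusted P value below 0.05, in a fit of 12 libraries where 6.95% of all genes did. The log2 differences in that fit were −0.62 for Pdgfrb (−0.98 in all libraries), −0.73 for Pdgfra (−0.89), −0.75 for Cd34 (−0.85) and −1.52 for Sfrp5 (−2.52). A second method, limma voom on the recovered reads, gave 0 genes past the adjusted threshold and 4 below the unadjusted one in that comparison, beside 13.4% of all genes below the latter.

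The groups did not overlap for Pdgfra, Pdgfrb and Sfrp5 in DIO-VSG against DIO-HFD (6.59% of all genes tested) and for Sfrp5 in DIO-HFD against CON-LFD (4.76%). In the other comparisons 0 of the 10 genes separated the groups, where the share over all genes was 4.51% for DIO-LFD against DIO-HFD, 18.8% for DIO-VSG against DIO-LFD, 7.02% for DIO-VSG against CON-LFD and 3.53% for DIO-LFD against CON-LFD. The median log2 difference of the 10 genes was −0.87 in DIO-VSG against DIO-HFD, with 8 lower, beside a median of 0.02 over all genes. It was 0.17 in DIO-HFD against CON-LFD (9 higher) and −0.38 in DIO-LFD against DIO-HFD (9 lower), beside 0.02 and 0.01. Over the 12 libraries these medians were −0.67 (9 lower), 0.28 (8 higher) and −0.32 (9 lower) in the same order. These comparisons share the DIO-HFD libraries, so their directions are not independent. Of the 9 genes higher in DIO-HFD than in CON-LFD, Fap (0.01), Ly6a (0.05) and Pi16 (0.06) lay near 0. Over 26 alternative analyses the sign turned in 7 for Fap, 2 for Ly6a, 5 for Pi16, 3 for Sfrp4, and 1 each for Cd34 and Dpp4.

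**Figure D2:**
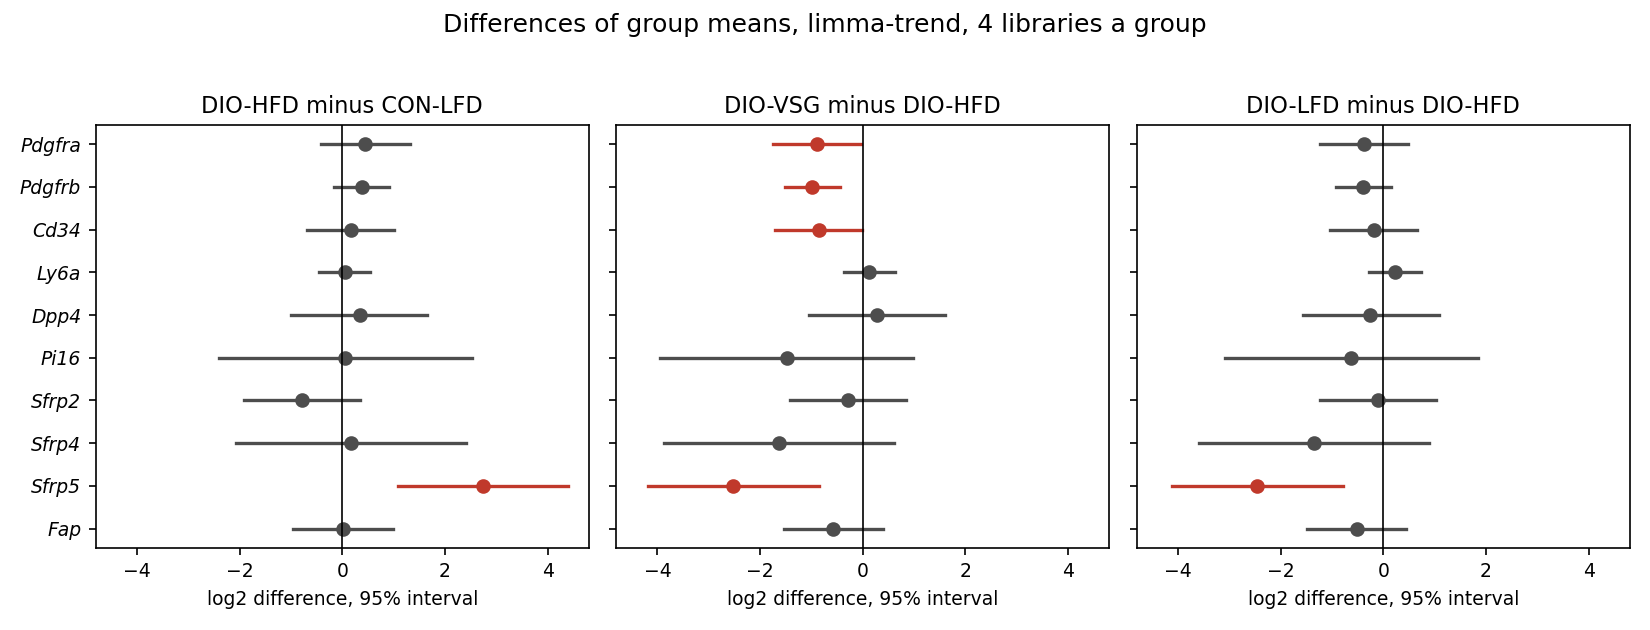
Difference of group means on the log2(normalized count + 1) scale (x axis) for each gene, with the 95% interval of limma, in the 3 comparisons with DIO-HFD; red marks an unadjusted P value below 0.05. Sfrp5 stood to the right of 0 in DIO-HFD minus CON-LFD and to the left in both weight loss comparisons, and the intervals of Pdgfra, Pdgfrb and Cd34 lay wholly left of 0 in DIO-VSG minus DIO-HFD.

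Pdgfra (ENSMUSG00000029231, GRCm38 chromosome 5, 75152292 to 75198215, plus strand, protein coding) encodes the receptor tyrosine kinase by which fibroblasts and adipose progenitors sense platelet-derived growth factor (PDGF). The CON-LFD mice gave normalized counts of 6843, 3060, 5742 and 9816, the DIO-HFD mice had 6897, 10101, 8000 and 7426, and there were 3825, 5254, 9867 and 7390 in DIO-LFD, and 2341, 6839, 3270 and 6678 in DIO-VSG. All DIO-HFD libraries stood above all DIO-VSG libraries, but only just, with 6897 against 6839 at the boundary, while CON-LFD and DIO-LFD spread over both. The means were 8106 ± 1405 (SD, n = 4) in DIO-HFD and 4782 ± 2314 in DIO-VSG, a log2 difference of −0.89 (SE 0.40, 95% interval −1.75 to −0.03, limma unadjusted P = 0.0429, adjusted P = 0.369). The exact two-sided permutation P value was 0.0286, the smallest that 4 libraries against 4 can give, and 0.429 after adjustment over the 60 such tests of these genes. Ordered by mean, Pdgfra ran from DIO-HFD to DIO-LFD (6584 ± 2634), CON-LFD (6365 ± 2796) and DIO-VSG, and no neighbours in that order differed beyond their spread.

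Pdgfrb (ENSMUSG00000024620, chromosome 18, 61045150 to 61085061, plus strand, protein coding) encodes the PDGF receptor of pericytes and of a fraction of stromal cells. The CON-LFD mice gave normalized counts of 5476, 4300, 3527 and 6113, the DIO-HFD mice had 4300, 7059, 8940 and 5324, and there were 4045, 3997, 5440 and 5582 in DIO-LFD, and 2238, 4065, 2707 and 3852 in DIO-VSG. The DIO-VSG libraries were the lowest as a group, and the highest of them (4065) lay under the lowest of DIO-HFD (4300). Pdgfrb was lower in DIO-VSG (3215 ± 883) than in DIO-HFD (6406 ± 2037), with a difference of mean log2 values of −0.98, or 1.98-fold on that scale (SE 0.25, 95% interval −1.52 to −0.44, limma unadjusted P = 0.00159, adjusted P = 0.246, exact permutation P = 0.0286). DIO-VSG was also the lower group against DIO-LFD (log2 difference −0.59, SE 0.25, limma adjusted P = 0.509) and against CON-LFD (−0.60, SE 0.25, limma adjusted P = 0.268), with overlapping libraries in both. The 2 highest libraries, DIO-HFD replicates 2 and 3, are those with a low B cell score. Without the 4 such libraries the log2 difference of DIO-VSG was −0.62 from DIO-HFD (limma adjusted P = 0.705) and −0.49 from CON-LFD (limma adjusted P = 0.773). With that score added to the model these differences were −0.77 (limma adjusted P = 0.308) and −0.29 (limma adjusted P = 0.968). The part of B cell content in these differences was not tested further.

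Cd34 (ENSMUSG00000016494, chromosome 1, 194938819 to 194961279, plus strand, protein coding) encodes a sialomucin carried by adipose stromal and endothelial cells. The CON-LFD mice gave normalized counts of 6370, 4242, 5432 and 14263, the DIO-HFD mice had 5335, 8440, 7853 and 9457, and there were 4081, 4567, 11156 and 9637 in DIO-LFD, and 2877, 5007, 3742 and 5834 in DIO-VSG. DIO-VSG lay lowest again, although its highest library (5834) passed the lowest of DIO-HFD (5335). The log2 difference between DIO-VSG (4365 ± 1313) and DIO-HFD (7771 ± 1754) was −0.85 (SE 0.39, 95% interval −1.70 to −0.01, limma unadjusted P = 0.0485, adjusted P = 0.377, exact permutation P = 0.0571). Between DIO-HFD and CON-LFD it was 0.17, with a 95% interval from −0.68 to 1.01, and 0.27 over the 12 libraries.

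Ly6a (ENSMUSG00000075602, chromosome 15, 74994877 to 74998031, minus strand, protein coding) encodes SCA-1, the anchored surface protein by which mouse progenitors are commonly sorted. It was the steadiest of the 10 genes, with mean normalized counts of 7392 ± 2263 for CON-LFD, 7465 ± 1867 for DIO-HFD, 8628 ± 1177 in DIO-LFD and 8082 ± 1472 in DIO-VSG. The groups overlapped throughout. Its log2 difference between DIO-VSG and DIO-HFD was 0.13, and the 95% interval of −0.37 to 0.63 does not hold the log2 differences measured for Pdgfra, Pdgfrb and Cd34 in that comparison; the difference between genes was not tested. Over the 12 libraries it was 0.22 (95% interval −0.31 to 0.75), and DIO-LFD was then 0.61 above CON-LFD (limma adjusted P = 0.552), against 0.28 over all libraries.

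Dpp4 and Pi16 mark the interstitial progenitors. Dpp4 (ENSMUSG00000035000, chromosome 2, 62330073 to 62412231, minus strand, protein coding) encodes a surface peptidase that inactivates incretin hormones. Its libraries ran from 452 to 4645 (normalized counts) for CON-LFD, from 1195 to 3718 in DIO-HFD, from 953 to 3653 in DIO-LFD and only from 2578 to 3341 in DIO-VSG. The means were alike at 2582 ± 1828, 2627 ± 1161, 2303 ± 1245 and 2923 ± 316, and Dpp4 was the only stromal gene besides Ly6a whose log2 difference between DIO-VSG and DIO-HFD was above 0 (0.28, 95% interval −1.05 to 1.6). That sign turned in 4 of 26 alternative analyses: over the 12 libraries the difference was −0.29 (95% interval −1.3 to 0.72), and it was also below 0 with library weights, with the B cell score in the model and without DIO-HFD replicate 3. No direction can be read for Dpp4. Pi16 (ENSMUSG00000024011, chromosome 17, 29317680 to 29330593, plus strand, protein coding) encodes a secreted peptidase inhibitor. It ran from 1478 to 23627 in CON-LFD, from 2648 to 12133 in DIO-HFD, from 264 to 16859 in DIO-LFD and from 510 to 4545 in DIO-VSG. Within DIO-LFD alone the mice differed 63.81-fold. The log2 difference of Pi16 between DIO-VSG (2431 ± 1656) and DIO-HFD (6169 ± 4194) was −1.48 with a 95% interval of −3.94 to 0.98 (limma adjusted P = 0.515), an interval that holds 0 as well as the differences measured for Pdgfra and Pdgfrb, so no difference was detectable against this spread. Over the 12 libraries it was −1.89 (95% interval −5.02 to 1.24), and over the alternative analyses it ran from −2.61 to −0.85.

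Of the 3 SFRP genes, Sfrp2 and Sfrp4 varied together across the 16 libraries (r 0.85), while r with Sfrp5 was −0.26 for Sfrp2 and 0.1 for Sfrp4. Sfrp5 (ENSMUSG00000018822, chromosome 19, 42197971 to 42202252, minus strand, protein coding), which encodes an SFRP known as an adipokine, showed the greatest difference of the 10 genes between DIO-HFD and CON-LFD. The CON-LFD mice gave normalized counts of 1318, 2151, 1561 and 5084, the DIO-HFD mice had 6451, 32429, 26091 and 8226, and there were 11401, 1069, 2855 and 1420 in DIO-LFD, and 5262, 2551, 869 and 3550 in DIO-VSG. Every DIO-HFD library lay above every CON-LFD and DIO-VSG library, and 1 DIO-LFD library, replicate 1, lay among those of DIO-HFD. Sfrp5 was higher in DIO-HFD (18299 ± 12939) than in CON-LFD (2529 ± 1740), with a difference of mean log2 values of 2.74, or 6.68-fold on that scale (SE 0.78, 95% interval 1.08 to 4.40, limma unadjusted P = 0.00329, adjusted P = 0.22, exact permutation P = 0.0286).

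Against DIO-HFD, Sfrp5 was lower in DIO-VSG (3058 ± 1839, log2 difference −2.52, SE 0.78, limma adjusted P = 0.274, exact permutation P = 0.0286) and in DIO-LFD (4186 ± 4871, −2.46, SE 0.78, limma adjusted P = 0.456, exact permutation P = 0.0857). Against CON-LFD the log2 differences of DIO-VSG and DIO-LFD were 0.22 (95% interval −1.44 to 1.88) and 0.28 (−1.38 to 1.95), and over the 12 libraries 0.82 (−1.13 to 2.77) and 0.89 (−1.07 to 2.84). All 4 intervals allow a 2-fold difference either way. In DIO-HFD the 2 libraries with a low B cell score (32429 and 26091) stood above the other 2 (6451 and 8226), and in CON-LFD the same held (2151 and 5084 against 1318 and 1561). Without these 4 libraries the log2 difference was 2.34 in DIO-HFD against CON-LFD (limma adjusted P = 0.602), −1.52 in DIO-VSG against DIO-HFD (limma adjusted P = 0.775) and −1.46 in DIO-LFD against DIO-HFD (limma adjusted P = 0.338), each with 2 DIO-HFD libraries.

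Sfrp2 (ENSMUSG00000027996, chromosome 3, 83766321 to 83774316, plus strand, protein coding) and Sfrp4 (ENSMUSG00000021319, chromosome 13, 19623104 to 19632994, plus strand, protein coding) encode SFRPs of fibroblasts and progenitors. Sfrp2 averaged 2033 ± 1415 for CON-LFD (normalized counts), 1034 ± 317 for DIO-HFD, 1068 ± 506 in DIO-LFD and 902 ± 395 in DIO-VSG. Its log2 difference between DIO-HFD and CON-LFD was −0.78 (95% interval −1.91 to 0.35), and −0.36 (−1.95 to 1.24) over the 12 libraries. Against CON-LFD its log2 difference in DIO-VSG was −1.06 (SE 0.53, limma unadjusted P = 0.0637, adjusted P = 0.296). Sfrp4 averaged 1062 ± 1402, 782 ± 488, 491 ± 463 and 248 ± 146 in the same order, with a log2 difference between DIO-VSG and DIO-HFD of −1.64 (95% interval −3.88 to 0.60, limma adjusted P = 0.448). For Sfrp4 it was 0.17 (−2.06 to 2.41) in DIO-HFD against CON-LFD and −1.34 (−3.58 to 0.90) in DIO-LFD against DIO-HFD. Over the 12 libraries the values against DIO-HFD were −1.55 for DIO-VSG and −1.25 for DIO-LFD. These signs are those of Sfrp5, and a difference between the genes was not tested. CON-LFD replicate 4 alone held 4045 for Sfrp2 and 3154 for Sfrp4, far above the other CON-LFD mice (1018 to 2000 and 175 to 499).

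Fap (ENSMUSG00000000392, chromosome 2, 62500943 to 62574075, minus strand, protein coding) encodes fibroblast activation protein, a surface peptidase of the DPP4 family. The 2 genes lie on the same strand of chromosome 2, separated by 88712 bases that hold the glucagon gene Gcg and 2 lincRNA genes, none of them listed in the table. Fap averaged 1359 ± 819 for CON-LFD (normalized counts), 1231 ± 245 for DIO-HFD, 1005 ± 616 in DIO-LFD and 829 ± 185 in DIO-VSG. Its log2 difference between DIO-VSG and DIO-HFD was −0.57 (95% interval −1.54 to 0.39, limma adjusted P = 0.521, exact permutation P = 0.0857), and between DIO-HFD and CON-LFD 0.01 (−0.95 to 0.98). Over the 12 libraries these were −0.38 and −0.05.

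Across mice, most of the 10 genes varied together, while Ly6a and Sfrp5 stood apart and Dpp4 went with Pi16 (r 0.59) but not with Pdgfrb (r −0.09). On the log2 scale over 16 libraries Pearson's r was 0.96 between Pi16 and Sfrp4, 0.94 between Sfrp4 and Fap and 0.90 between Cd34 and Fap, and 24 of the 45 pairs had an r above 0.5. With the group means removed these values were 0.97, 0.93 and 0.96, so the joint movement lay between mice of the same group. The 45 pairs share the same libraries and are given as a description. With Pdgfra, r was 0.88 for Cd34 (Spearman's rho 0.91, adjusted permutation P = 9e-05 for both, over 9 relations), 0.82 for Sfrp4 (rho 0.90), 0.81 for Pi16 (0.83), 0.80 for Pdgfrb (0.85) and 0.80 for Fap (0.86), with adjusted permutation P values of 0.00034 or less for r and 0.00016 or less for rho. Sfrp2 gave an r of 0.65 (adjusted permutation P = 0.0079) but a rho of 0.46 (adjusted permutation P = 0.1). Dpp4 (r 0.45, rho 0.45), Sfrp5 (0.30, 0.42) and Ly6a (−0.22, −0.20) had adjusted permutation P values of 0.095, 0.29 and 0.42 for r, and 0.1, 0.12 and 0.46 for rho. These permutations shuffled all 16 libraries without regard to group, so differences between groups enter them. With group means removed, r with Pdgfra was 0.86 for Cd34, 0.84 for Sfrp4, 0.83 for Fap and 0.81 for Pi16. It was 0.81 for Sfrp2, 0.73 for Pdgfrb, 0.63 for Dpp4, 0.02 for Sfrp5 and −0.20 for Ly6a.

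These relations with Pdgfra did not rest on its most extreme libraries. Without DIO-VSG replicate 1 and CON-LFD replicate 2, the 2 farthest from its median, r was 0.86 for Cd34, 0.83 for Sfrp4, 0.76 for Pi16, 0.78 for Pdgfrb, 0.84 for Fap, 0.61 for Sfrp2, 0.42 for Dpp4, 0.42 for Sfrp5 and −0.23 for Ly6a. Among the 12 libraries with a B cell score above −2, r was 0.89 for Cd34, 0.88 for Pdgfrb, 0.84 for Pi16, 0.80 for Sfrp4, 0.79 for Sfrp2, 0.75 for Fap, 0.38 for Dpp4, −0.06 for Sfrp5 and −0.38 for Ly6a. No relation of the adipocyte score with the 10 genes passed adjustment over the 10 relations. The strongest r was −0.49, for Dpp4 (rho −0.47, adjusted permutation P = 0.57 and 0.35), and the strongest rho 0.51, for Pdgfrb (r 0.4, adjusted permutation P = 0.35 and 0.6). Without the 2 libraries farthest from the median score, DIO-HFD replicate 1 and DIO-LFD replicate 1, r was −0.4 for Dpp4, 0.65 for Pdgfrb, 0.51 for Cd34, 0.5 for Fap, 0.45 for Sfrp2, 0.42 for Sfrp4, 0.33 for Pdgfra and for Sfrp5, 0.28 for Pi16 and 0.0 for Ly6a, all but Ly6a above their values over all libraries. In the 12 libraries it was −0.69 for Dpp4 and 0.21 for Pdgfrb. These relations thus shifted with the libraries included, and no reading of them is offered.

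**Figure D3:**
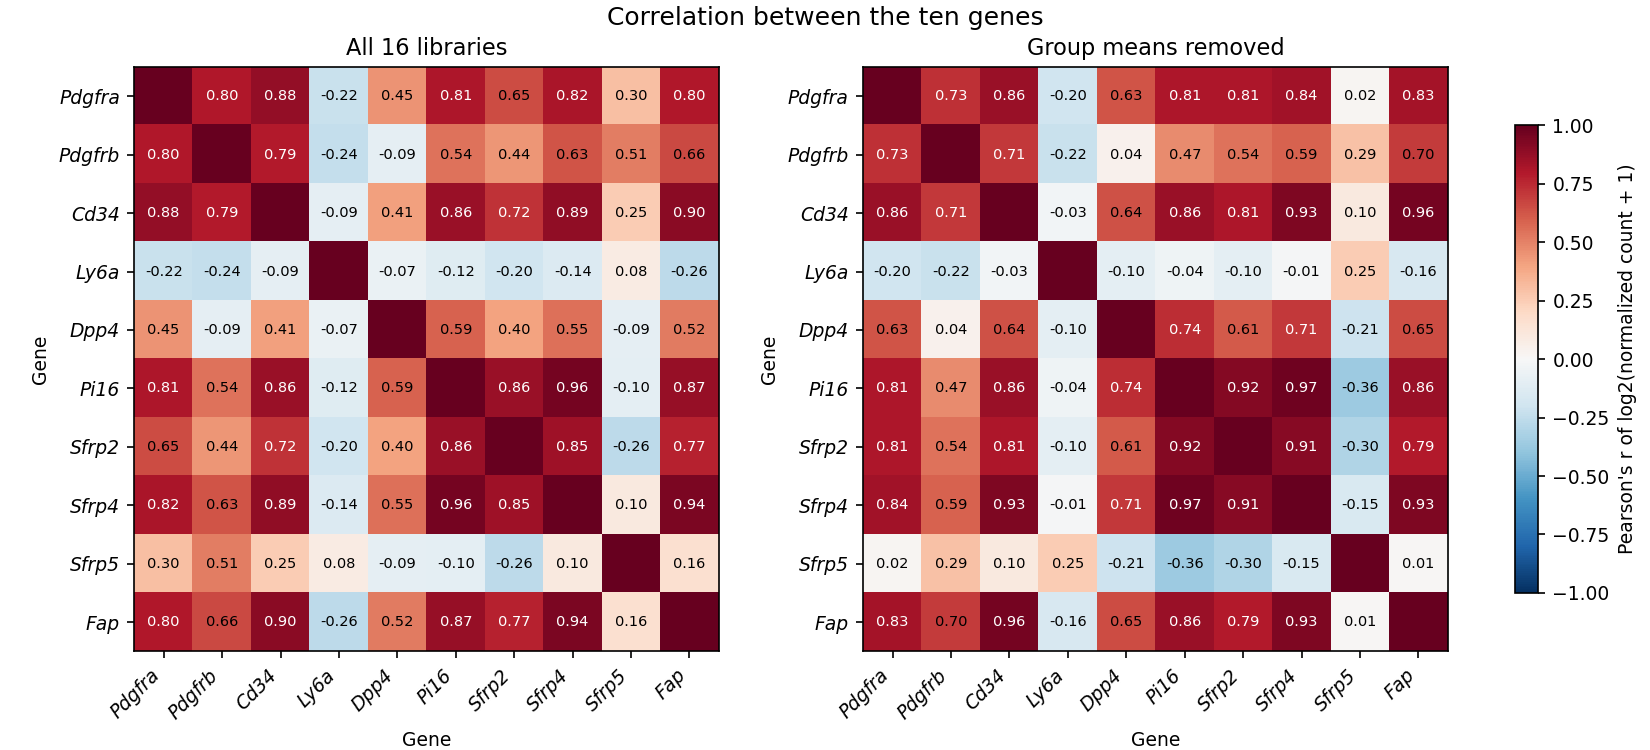
Pearson's r between the 10 genes (rows and columns) on the log2(normalized count + 1) scale, over all 16 libraries on the left and with group means removed on the right. Pi16 and Sfrp4 had the highest r (0.96 and 0.97), whereas the Ly6a and Sfrp5 rows were pale, with Sfrp5 and Pdgfrb at 0.51 over all libraries.

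**Figure D4:**
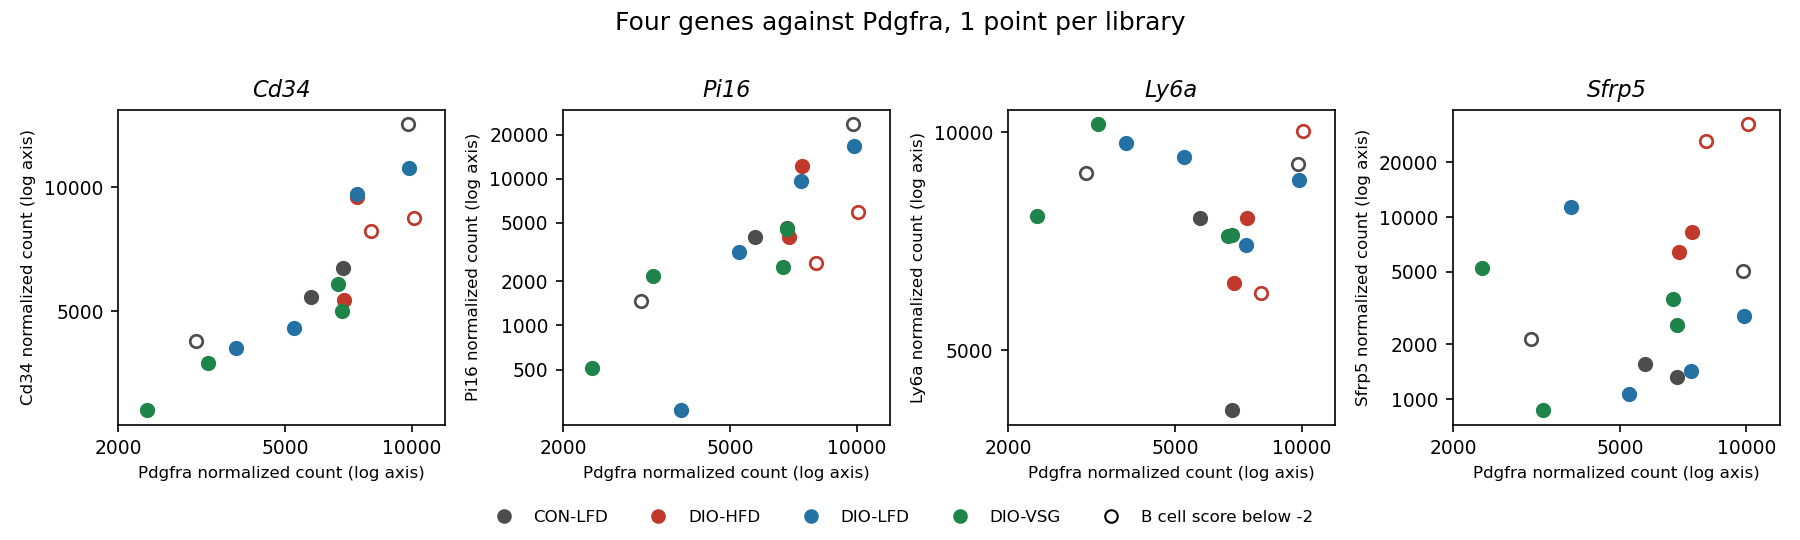
Normalized counts of Cd34, Pi16, Ly6a and Sfrp5 (y axes, log) against Pdgfra (x axis, log), 1 point per library, colored by group and open where the B cell score was below −2. Libraries with more Pdgfra had more Cd34 and Pi16 (r 0.88 and 0.81), and not more Ly6a (r −0.22).

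The genes outside the set whose log2 values followed Pdgfra most closely over the 16 libraries were Adgrd1 (Pearson's r 0.951), Axl (0.95), Dcn (0.945), Lrrn4cl (0.944) and Thbs3 (0.941). Dcn encodes decorin, a matrix proteoglycan of fibroblasts. Pi16 was followed most closely by Fam171b (0.981), Opcml (0.978), Xpnpep2 (0.969), Il1rl2 (0.965) and 1700019D03Rik (0.954), of which Opcml is also on the list of interstitial progenitor markers described below. Sfrp5 had other neighbors, among them Abat (0.940), AW822252 (0.937), 4930480G23Rik (0.934) and Golga3 (0.929). With group means removed the values of these genes stayed at 0.868 or above. They are among the highest of 21218 genes tested and are given as a description.

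Promoter sequences were read for the genes that moved together and for Sfrp5, which did not. RefSeq promoter windows on GRCm38.p6, from 250 bases before to 50 bases after a RefSeq start of the gene, were given for 6 of the 10 genes (Pdgfra, Cd34, Dpp4, Pi16, Sfrp2 and Sfrp5), and 4 are shown, 5′ to 3′ on the gene's strand. Capitals mark matches, on either strand, to 6 short motifs. The TATA box was searched as TATAAA. The GC box, to which SP factors bind, was searched as GGGCGG. The CCAAT box was searched by the letters of its name. Sites of TCF/LEF, the nuclear factors of Wnt signaling, were searched by their core CTTTGA. Sites of C/EBP, a family of adipogenic factors, were searched as TTGCNNAA. Sites of TEAD factors were searched as CATTCC. No matches to these 6 overlapped. The E-box, searched as CANNTG, is present in 72.3% of all windows and was not marked. It matched in the Pdgfra, Dpp4, Pi16 and Sfrp5 windows. The windows lay at chr5:75152001-75152300 (plus strand) for Pdgfra, chr17:29318632-29318931 (plus) for Pi16, chr3:83766071-83766370 (plus) for Sfrp2 and chr19:42202203-42202502 (minus) for Sfrp5. The Pi16 window lies inside the gene as GENCODE places it (29317680 to 29330593), downstream of the GENCODE start. It therefore does not show the promoter of that start.
Pdgfra: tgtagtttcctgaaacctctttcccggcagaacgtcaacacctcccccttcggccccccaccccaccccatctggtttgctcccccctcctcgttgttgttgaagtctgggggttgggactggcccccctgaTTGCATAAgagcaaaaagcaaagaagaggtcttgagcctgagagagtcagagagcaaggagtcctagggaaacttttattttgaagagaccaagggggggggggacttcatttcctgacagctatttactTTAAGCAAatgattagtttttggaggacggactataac
Pi16: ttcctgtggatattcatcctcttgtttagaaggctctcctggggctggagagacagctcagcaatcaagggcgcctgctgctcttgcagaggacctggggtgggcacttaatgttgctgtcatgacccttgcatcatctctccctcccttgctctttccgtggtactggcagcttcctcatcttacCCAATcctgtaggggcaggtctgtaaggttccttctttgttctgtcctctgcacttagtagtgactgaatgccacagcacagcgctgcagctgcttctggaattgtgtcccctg
Sfrp2: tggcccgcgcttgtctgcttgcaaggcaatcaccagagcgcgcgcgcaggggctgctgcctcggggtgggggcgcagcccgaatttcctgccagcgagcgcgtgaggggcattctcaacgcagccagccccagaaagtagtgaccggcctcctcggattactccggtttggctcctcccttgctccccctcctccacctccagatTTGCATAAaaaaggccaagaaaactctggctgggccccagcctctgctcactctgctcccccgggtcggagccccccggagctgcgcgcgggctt
Sfrp5: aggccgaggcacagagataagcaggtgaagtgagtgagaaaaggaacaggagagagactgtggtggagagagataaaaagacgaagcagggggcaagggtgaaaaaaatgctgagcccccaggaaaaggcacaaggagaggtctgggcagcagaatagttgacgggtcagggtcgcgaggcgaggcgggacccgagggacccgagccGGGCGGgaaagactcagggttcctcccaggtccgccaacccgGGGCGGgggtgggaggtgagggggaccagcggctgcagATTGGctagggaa

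The letters of the C/EBP motif were found 2 times in the Pdgfra window, at −118 and at 12 from the start, and once in that of Sfrp2, at −45, and in none of the other 4 windows. They are present in 10.8% of all 32851 promoter windows. The Sfrp5 window held 2 GC boxes (present in 35.7% of windows) and a CCAAT box (37.4%), and the Pi16 window a CCAAT box. The TCF/LEF letters, present in 16% of windows, were in none of the 6. The Dpp4 window held a TATAAA at −227 (13.6% of windows) and a CATTCC at −118 (14.7%), and the Cd34 window held none of these 6 motifs. The Sfrp2 and Sfrp5 windows were rich in CpG, with 22 and 15 CpG dinucleotides and a GC content of 66.0% and 61.3%, against a median of 7 and 52.7% over all windows, while Pdgfra had 5 and Pi16 had 3. A match is a description of the letters and not evidence of a bound site.

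The wider pathways of these genes were described by counts, with 0 genes past the adjusted threshold in any list and comparison. In DIO-VSG against DIO-HFD, 5 of 15 PDGF ligand and signaling genes had an unadjusted limma P value below 0.05 and were lower in DIO-VSG, and 1 was higher, beside 13.2% of all genes. The median log2 difference of the list was −0.23, beside 0.02 over all genes. Over the 12 libraries 1 was lower and 1 higher at that P value (6.95% of all genes), with a median of −0.15. The 3 with the smallest P values were all ligands. Pdgfb, the ligand of PDGFRβ from endothelial cells, was at 1373 ± 36.5 normalized counts in DIO-VSG and 2551 ± 692 in DIO-HFD (log2 difference −0.85, SE 0.21, limma adjusted P = 0.243). Pdgfd was at 529 ± 91.4 and 1090 ± 449 (−0.95, limma adjusted P = 0.273), and Pdgfa at 710 ± 79.3 and 1174 ± 403 (−0.67, limma adjusted P = 0.274). In DIO-HFD against CON-LFD, 0 of the 15 were higher and 1 was lower at that P value (12.9% of all genes), Sos1, an exchange factor that activates Ras (2765 ± 177 against 3215 ± 153, limma adjusted P = 0.247).

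Of 40 Wnt pathway genes in the table (Dkk1 and Notum were not listed there), 11 were lower and 0 higher in DIO-VSG than in DIO-HFD at an unadjusted limma P value below 0.05, with a median log2 difference of −0.41, and 7 were lower over the 12 libraries (median −0.32, 6.95% of all genes). The 3 with the smallest P values were Kremen1, a receptor of the Dickkopf inhibitors (2195 ± 141 against 2914 ± 480 normalized counts), Sfrp1, a further SFRP (685 ± 155 against 1542 ± 561), and the ligand Wnt9a (187 ± 23.4 against 385 ± 134), with limma adjusted P values of 0.246, 0.246 and 0.263. Against CON-LFD, 14 were lower and 1 higher in DIO-VSG (median −0.41), led by the ligand Wnt5b (365 ± 40 against 980 ± 395, limma adjusted P = 0.268), and over the 12 libraries 7 were lower and 0 higher (5.12% of all genes). DIO-HFD against CON-LFD gave 2 higher, Wnt11 and Kremen1, and 0 lower (median 0.01), against 1 higher and 2 lower over the 12 libraries (7.54% of all genes). In DIO-LFD against DIO-HFD, Sfrp1 was 1 of 2 lower (855 ± 217 against 1542 ± 561, limma adjusted P = 0.497), the other being the Wnt target Nkd1. For 16 libraries the shares of all genes at that P value are those given above for each comparison.

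Among 12 genes of a list of dipeptidyl, prolyl and other peptidases, with Cxcl12, whose product DPP4 cleaves, and Cav1, 9 had a lower and 3 a higher mean log2 value in DIO-VSG than in DIO-HFD (median −0.18). Of these, 3 were lower at an unadjusted limma P value below 0.05 (Prep, and the metallopeptidase genes Dpp3 and Anpep, which lie outside the DPP4 family), beside 13.2% of all genes, and the hormone genes Gcg, Gip, Npy and Pyy were not listed in the table. Anpep, an aminopeptidase of stromal cells, was at 3718 ± 552 and 6046 ± 1335 normalized counts (log2 difference −0.69, SE 0.25, limma adjusted P = 0.308). Of 13 Ly6 family genes tested besides Ly6a, 6 had a higher and 7 a lower mean log2 value in DIO-VSG than in DIO-HFD, and 1 stood at that P value, Ly6d (6718 ± 2197 against 2631 ± 1187, log2 difference 1.42, limma adjusted P = 0.246), a gene also used by B lineage and epithelial cells. Over the 12 libraries 0 of the 13 stood at that P value, beside 6.95% of all genes.

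Lists of cell type markers that hold none of the 10 genes were read in the same way, beside the 13.2% of all genes tested with an unadjusted limma P value below 0.05 in DIO-VSG against DIO-HFD. In DIO-VSG against DIO-HFD the median log2 difference was −0.93 for 12 fibroblast genes (11 lower, 3 at an unadjusted limma P value below 0.05), −0.96 for 10 interstitial progenitor genes (9 lower, 4 at that P value), −0.67 for 10 mural cell genes (7 lower and 1 higher at that P value) and −0.51 for 12 endothelial genes (12 lower, 7 at that P value). It was −0.56 for 6 CD142-positive stromal genes (2 at that P value), −0.11 for 8 committed preadipocyte genes (1 at that P value) and 0.02 for 12 adipocyte genes (8 higher and 4 lower, 1 of them at that P value, the leptin gene Lep). The shares of the preadipocyte and adipocyte lists were not above that of all genes. Over the 12 libraries, where 6.95% of all genes stood at that P value, the median was −0.67 for fibroblast genes (0 at that P value), −0.85 for interstitial progenitor genes (3 lower), −0.45 for mural genes (3 lower and 1 higher), −0.19 for endothelial genes (12 lower, 0 at that P value), −0.02 for preadipocyte genes and 0.45 for adipocyte genes (1 higher). Gsn, a fibroblast gene for gelsolin, stood at 191595 ± 53783 in DIO-VSG and 405753 ± 156802 in DIO-HFD (log2 difference −1.03, SE 0.33, limma adjusted P = 0.274). Creb5, of the interstitial progenitor list, stood at 1045 ± 347 and 1974 ± 402 (−0.96, SE 0.27, limma adjusted P = 0.258), and the smooth muscle actin gene Acta2 at 9571 ± 1934 and 20542 ± 6214 (−1.08, SE 0.29, limma adjusted P = 0.246).

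In DIO-HFD against CON-LFD the medians were 0.11 for fibroblasts, 0.16 for interstitial progenitors, 0.20 for mural cells (2 higher and 1 lower at an unadjusted limma P value below 0.05, beside 12.9% of all genes) and 0.33 for endothelial cells (11 of 12 higher, 1 at that P value), and over the 12 libraries −0.03, 0.2, 0.24 and 0.17. In DIO-LFD against DIO-HFD they were −0.54, −0.14, −0.14 and −0.13, and over the 12 libraries −0.37, −0.15, −0.25 and 0.24. In DIO-VSG against DIO-LFD they were −0.40, −0.75, −0.32 and −0.43, with 1 of 12, 4 of 10, 1 of 10 and 2 of 12 genes lower at an unadjusted limma P value below 0.05, beside 9.71% of all genes. All 10 B cell and 10 T cell genes were higher in DIO-VSG than in DIO-LFD without overlap (medians 1.22 and 1.46), beside 18.8% of all genes without overlap. The adipocyte, mammary epithelial and macrophage medians were −0.42, −0.39 and −0.65. Leaving out the 4 libraries takes none from these 2 groups, and the part of other cells was not tested. In DIO-VSG against CON-LFD the interstitial progenitor median was −0.82 (9 of 10 lower, 2 at an unadjusted limma P value below 0.05, beside 17.8% of all genes) and −0.62 over the 12 libraries. The gene with the higher mean log2 value in DIO-VSG was Cd55, at 8322 ± 437 against 5240 ± 2457 in CON-LFD (limma adjusted P = 0.315).

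Markers of lymphocytes differed most within CON-LFD and DIO-HFD. The summed normalized count of 10 B cell genes was 74866 to 86935 in DIO-VSG, 19708 to 44978 in DIO-LFD, 1278 to 109750 in DIO-HFD and 387 to 82845 in CON-LFD, so that all 10 were higher in mean in DIO-VSG than in DIO-HFD (median log2 difference 2.78, with 0 at an unadjusted limma P value below 0.05). That difference came with DIO-HFD replicates 2 and 3: over the 12 libraries the median was −0.06, and DIO-HFD replicates 1 and 4 had B cell scores of 2.34 and 1.65 beside 1.81 to 2.02 in DIO-VSG. For 10 T cell genes it was 30698 to 47545, 9465 to 20035, 960 to 51456 and 1253 to 35296 in the same order, and for 6 lymph node stroma genes 38956 to 51705, 18128 to 25060, 310 to 63380 and 712 to 49831. The T cell and lymph node stroma medians between DIO-VSG and DIO-HFD were 2.29 and 2.65, and 0.01 and −0.07 over the 12 libraries. Of 8 keratinocyte genes 7 were tested, and all 8 had a summed count of 1135 to 1185 in DIO-VSG and 1389 to 14443 in DIO-HFD, where replicate 4 had a score of 4.55 and the other 3 scores of −0.15 to 0.28. Flg, a defining keratinocyte gene, was at 0 in every CON-LFD and DIO-VSG library. Skeletal muscle genes summed to 502 to 21208 in DIO-VSG, 1440 to 130461 in DIO-LFD, 856 to 3210 in DIO-HFD and 2229 to 29557 in CON-LFD. The 5 mesothelial genes in the table, 3 of which passed the filter on low values, summed to 82.9 to 195 in DIO-VSG and 114 to 381 in DIO-HFD, and 11 mammary epithelial genes to 48490 to 73748 and 31050 to 66386. Macrophage genes had a median log2 difference of −0.62 between DIO-VSG and DIO-HFD, with 0 of 10 at an unadjusted limma P value below 0.05. The part of these cells in the differences of the 10 stromal genes was not tested, beyond the values without the 4 libraries of low B cell score.

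**Figure D5:**
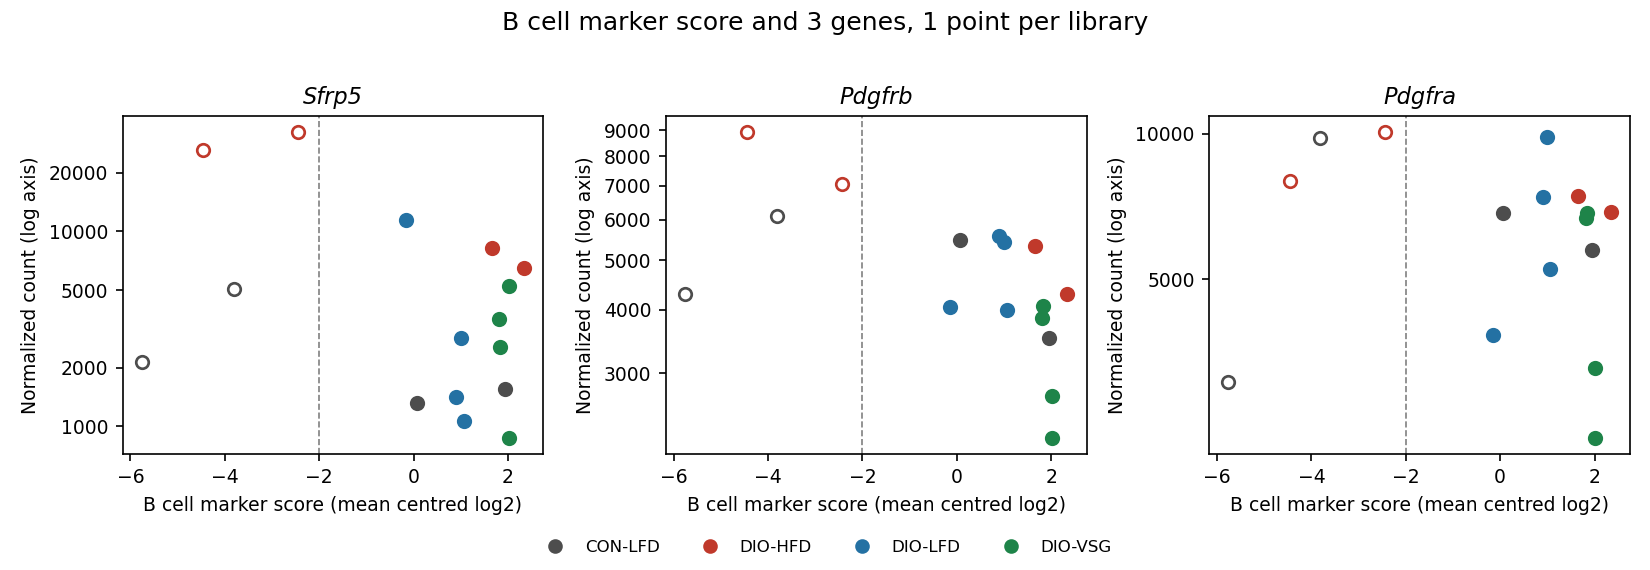
Normalized counts (log axis) of Sfrp5, Pdgfrb and Pdgfra against the B cell marker score of the same library, with group by color and a dashed line at −2. The 4 open points left of the line are CON-LFD replicates 2 and 4 and DIO-HFD replicates 2 and 3; the 2 from DIO-HFD carry the highest Sfrp5 (32429 and 26091) and Pdgfrb (7059 and 8940) of all libraries.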

How the data were processed

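Total RNA of 16 contralateral mammary fat pads was sequenced by the authors from stranded libraries. Their methods name STAR and salmon with a Gencode annotation on GRCm38, whereas the submitters' processing notes name TopHat2 2.0.7 and HTSeq 0.5.3p9 on mm10; which made the table is not settled by the sources used here. Genes under 10 counts were dropped by the authors, who used DESeq2. The deposited values are on a log2 scale: they are variance-stabilized values from 5.36 to 21.85 for 23179 genes, although named normalized counts. The transformation was inverted, and whole reads were recovered for 100.0% of values (tolerance 0.01), with size factors of 0.9036 to 1.2204; normalized counts are reads divided by these.

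log2(normalized count + 1) was compared by limma-trend (R 4.3.3, limma 3.58.1) in 1 fit of 16 libraries with group as the only term, on 21218 genes, two-sided, with Benjamini-Hochberg adjustment within each of 6 comparisons. On this scale fold changes of low genes are understated. Exact permutation tests and 100000 random permutations for correlations used scipy 1.17.1. The code of the fit was checked on simulated counts with planted changes. Their spread was not matched to these mice, so the check says nothing on power here. Replicates of a group differed with a chi-square of 67.5 or more per gene, so none was a library deposited under 2 names. Replicates are separate mice by the labels. Gene positions and exon lengths came from GENCODE M21 (GRCm38), promoter windows from RefSeq. The 10 genes, the 19 lists and the tests were chosen with earlier results of these data known. Values by library were given for Pdgfra and for genes with an unadjusted P value below 0.05 or groups that did not overlap, and of each list up to 3 genes with the smallest P value. Of the genes most like the 10, 1 is not reported here. Of the lists, 2 genes (Pparg and Wnt2) were on more than 1. Alternatives were the deposited scale, a pseudocount of 5, no filter, quantile normalization, library weights, 2 groups alone, a replicate block, the B cell score as covariate, each library left out and, chosen after seeing the data, limma voom on the recovered reads and leaving out 4 libraries together.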

Additional observations from a re-analysis of the deposited data

Results flagged for a closer look

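In 3 of the 40 gene and group combinations, 1 library stood apart from the other 3 of its group by Dixon's test on normalized counts. The chance rate of about 5% of combinations assumes normally distributed values, which was not checked for these counts. On the log2 scale, tried after seeing the data, none of the 3 stood apart, and 1 other combination did, Sfrp2 in DIO-LFD, at 325 normalized counts in replicate 1 against 1192 to 1440. Ly6a was 10266 normalized counts in DIO-VSG replicate 3, against 7185 to 7661 in the other DIO-VSG libraries. Pi16 was 23627 in CON-LFD replicate 4, against 1478 to 4633 in the others. Sfrp4 was 3154 in the same library, against 175 to 499. Pi16 and Sfrp4 go together across mice (r 0.96), so their marks in CON-LFD replicate 4 are not independent. This library also had the highest fibroblast (1.36), macrophage (1.47) and skeletal muscle (3.8) scores of its group and a low B cell score (−3.81), whose part in these values was not tested.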

How the results depend on the processing

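The counts of the 10 genes past a threshold and their log2 differences were recomputed under 26 alternatives, and the marker and pathway lists only without the 4 libraries of low B cell score. All 8 differences of single genes with an unadjusted limma P value below 0.05 kept their sign in 26 of 26. Library weights alone brought any of the 10 genes past the adjusted limma threshold, and they gave DIO-HFD replicate 4 a weight of 10.924 against 0.222 to 0.484 for the other DIO-HFD libraries. With them 1 gene passed in DIO-HFD against CON-LFD (Sfrp5, 2.33 on the log2 scale, limma adjusted P = 0.0211; 19.8% of all genes passed), 5 in DIO-VSG against DIO-HFD (17.6%), 1 in DIO-LFD against DIO-HFD (8.54%), 1 in DIO-VSG against CON-LFD (19.9%), and 0 in DIO-VSG against DIO-LFD (0.867%) and DIO-LFD against CON-LFD (0.25%). At an unadjusted limma P value below 0.05, weights gave 3, 8, 1, 3, 3 and 1 genes in DIO-HFD against CON-LFD, DIO-VSG against DIO-HFD, DIO-LFD against DIO-HFD, DIO-VSG against DIO-LFD, DIO-VSG against CON-LFD and DIO-LFD against CON-LFD, instead of 1, 4, 1, 1, 1 and 0, beside 37.5%, 33.9%, 26.4%, 25.9%, 37.4% and 17% of all genes.

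With the B cell score as covariate, 2 genes stood at that P value in DIO-VSG against DIO-HFD (10.2% of all genes) and 0 in DIO-VSG against CON-LFD (4.98%). Without the 4 libraries of low score (CON-LFD replicates 2 and 4, DIO-HFD replicates 2 and 3), 1, 0, 0 and 1 did in DIO-VSG against DIO-HFD, DIO-LFD against DIO-HFD, DIO-VSG against CON-LFD and DIO-LFD against CON-LFD (Ly6a), beside 6.95%, 23.1%, 5.12% and 8.16% of all genes, with fewer samples in the fit. Leaving out 1 library at a time gave 1 to 2 genes in DIO-HFD against CON-LFD (8.53% to 19.7% of all genes), 2 to 4 in DIO-VSG against DIO-HFD (7.47% to 27.5%), 1 to 2 in DIO-LFD against DIO-HFD (5.95% to 9.21%), 0 to 3 in DIO-VSG against DIO-LFD (5.11% to 13.3%) and 0 to 3 in DIO-VSG against CON-LFD (8.95% to 30.5%). In DIO-VSG against DIO-HFD the count fell to 2 without CON-LFD replicate 1 or 3 (12.1% and 14.9% of all genes), DIO-HFD replicate 2, 3 or 4 (7.87%, 8.67% and 15%), or DIO-VSG replicate 1 or 3 (9.39% and 7.47%). In DIO-HFD against CON-LFD and in DIO-LFD against DIO-HFD it was 2 without DIO-HFD replicate 1 (11.1% and 8.07%). In DIO-VSG against DIO-LFD it was 3 without DIO-LFD replicate 1 (8.48%) and 0 without replicate 3 or 4 of DIO-LFD (7.41% and 7.95%) and without replicate 1 or 3 of DIO-VSG (5.11% and 6.44%). In DIO-VSG against CON-LFD it was 3 without CON-LFD replicate 2 (9.72%), 2 without CON-LFD replicate 3 (30.5%), DIO-LFD replicate 1 (17.9%) or DIO-VSG replicate 2 or 4 (12.6% and 14.5%), and 0 without replicate 1 or 4 of CON-LFD (12.3% and 8.95%) and without replicate 1 or 3 of DIO-VSG (10% and 13.3%). With only the 2 groups compared in the fit, 6 genes stood at that P value in DIO-VSG against DIO-HFD (12% of all genes), and the counts of the other comparisons did not change. The cause was not tested.

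The replicate numbers did not pair the mice: over 24 pairs of same-numbered libraries the correlation of deviations ran from −0.609 to 0.534, with 9 over 0.1. With a replicate block, 2 genes stood at that P value in DIO-VSG against DIO-LFD (8.81% of all genes) and 3 in DIO-VSG against CON-LFD (16%), and 4 in DIO-VSG against DIO-HFD (11.8%) as without it.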
